A study of Mus musculus with 4 samples.

Results

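Suprabasal keratinocytes are the cells of the epidermis that have left its basal layer and are differentiating toward the skin surface. They were chosen among the cells of 4 mouse digit libraries in a few steps from the UMI counts. UMIs are unique molecular identifiers, which count captured RNA molecules. A cell first had to hold at least 500 genes and 1000 UMIs, at most 10% mitochondrial UMIs, no Ptprc or Cdh5, at least 20 UMIs of Krt5, Krt14, Krt1 and Krt10 together, and fewer than 4 of Mki67, Top2a and Cenpf. It then needed at least 3 UMIs summed over Krt2, Dsc1, Cst6 and Serpinb12, and this sum had to exceed the sums for basal (Col17a1, Fras1 and Wnt3), follicle (Lhx2, Shisa2 and Grm8) and matrix genes (Krt35, Krt25 and Krt28). In all, 1115 cells met the rule, which is 31.6% of the 3525 cells that passed the keratin gate and 2.84% of the 39266 cells that passed the quality filter. The cells were chosen by measured counts of these genes, so their levels of the rule genes are a description.

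The tissue was digit of wild-type FVB/NJ mice, given in the labels as 8 weeks old with males and females pooled. 1 library came from the middle phalanx (P2) of unamputated digits, called homeostatic in the labels, and 1 each from fibrosing P2 tissue at 12, 17 and 28 days post-amputation (dpa). Digits were dissected by hand, digested with trypsin and collagenase I, freed of red cells, and sorted for live cells by propidium iodide before 10x 3′ v3 library preparation, per the labels' protocols. Each group was 1 library, so no test was possible, and differences have no replicate check. Intervals below are exact 95% intervals, Clopper-Pearson for shares and Poisson for levels, and cover counting error only.

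The epidermis is renewed from a basal layer that expresses Krt5 and Krt14. When a keratinocyte leaves that layer it turns on Krt1 and Krt10, whose filaments are anchored at desmosomes, and the upper cells then make the envelope precursors, lipids, proteases and protease inhibitors of the barrier. Skin under repair is known for a different set of keratins, Krt6a, Krt6b, Krt16 and Krt17, and for alarm proteins such as S100a8 and S100a9.

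The unamputated library gave 378 of these cells, the 12 dpa library 125, the 17 dpa library 164 and the 28 dpa library 448. As a share of cells past the keratin gate they were 33.1% (30.3 to 35.9) in unamputated digits and, in order of time after amputation, 27.9% (23.8 to 32.3), 31.3% (27.3 to 35.5) and 31.8% (29.3 to 34.3). The 4 intervals overlap. As a share of all filtered cells they were 3.16% (2.86 to 3.49), 1.80% (1.5 to 2.14), 1.89% (1.61 to 2.19) and 3.84% (3.5 to 4.20) in the same order, with the unamputated and 28 dpa intervals above those of 12 and 17 dpa. These shares also depend on the dissection, the digestion and the live sort. The cells that met the corresponding rule for basal keratinocytes numbered 569, 234, 292 and 650.

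The libraries differed in depth and in some properties that bear on the values below. The chosen cells had a median of 20220 UMIs in unamputated digits and 17546, 15625.5 and 11898.5 UMIs in the 12, 17 and 28 dpa libraries, and their pooled UMIs came to 7883342, 2287205, 2521132 and 5512301. Median mitochondrial shares lay between 5.11% and 6.05%. Although the labels give pooled sexes for all 4 libraries, Xist stood at 675 CPM (counts scaled to a common total of UMIs) at 12 dpa and between 0 and 0.127 CPM in the other 3, and Y-linked UMIs were found in 0 of 125 cells at 12 dpa, which allows up to 2.4% when 3 counts of the total are taken as the limit, and in 366, 143 and 382 cells of the other libraries. All 4 libraries thus went against the label in these cells, and for the comparison at 12 dpa sex cannot be told apart from time, while the 17 and 28 dpa libraries had the same pattern as unamputated digits. Between 19 and 87 barcodes were shared by pairs of libraries, none of them among the chosen cells. Scrublet, a doublet caller, marked 6.88%, 8.0%, 11.6% and 13.2% of the chosen cells, and these were kept. The marks went to the top-scoring barcodes at an assumed rate of 0.8% per 1000 barcodes, which took 12.8%, 7.05%, 8.41% and 12.2% of all barcodes. Scrublet's automatic cut took 2.26%, 2.70%, 2.83% and 4.50%.

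The defining markers fitted the name for most of these cells. Krt1 and Krt10 together made up a median of 3.02%, 3.74%, 3.28% and 2.35% of a cell's UMIs in the 4 libraries, while in basal cells the medians lay between 0.0274% and 0.0446%. Krt5 and Krt14 together stood the other way round, with medians of 0.0186% to 0.0320% in suprabasal cells and 1.27% to 1.79% in basal cells. Since both keratin pairs are in the gate, and the markers are in the rule, these values describe the choice. At the edge of the rule, the 11, 12, 9 and 25 cells with exactly 3 UMIs of the 4 genes held 12630, 5076, 11855 and 7266 CPM of Krt10, and the 19, 12, 2 and 21 cells with 2 UMIs held 7346, 10947, 99.5 and 7174 CPM.

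Markers of other cell types were mostly low but not absent. The 6 fibroblast markers, all detected, summed to 2231, 5238, 3887 and 3698 CPM in the 4 libraries, against 24532 to 35181 CPM in cells outside the keratin gate. Cells with at least 10 UMIs of Col1a1, Col1a2 and Col3a1 made up 5.29%, 24.8%, 14.6% and 14.3% of the chosen cells. Immune markers summed to 31.5, 21.4, 48.8 and 106 CPM (3580 to 4975 outside), with Ptprc at 0 by the rule. The endothelial, Schwann, melanocyte, Merkel and sweat gland lists each summed to at most 53.5 CPM, and the Langerhans list to 114 to 192 CPM with its defining gene Cd207 at 0 in the unamputated, 12 and 17 dpa libraries. The hair follicle list, which holds Krt79 and Krt17, summed to 1639, 1250, 2034 and 991 CPM, and the hair and nail matrix list to at most 20.1 CPM. The part of these RNAs in the results below was not tested, apart from the counts of genes and the list medians without the collagen-bearing cells.

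The 4 genes of the rule divided the cells into unlike groups. Krt2 encodes a keratin of the upper spinous and granular layers, Dsc1 a desmosomal cadherin of the upper epidermis, Cst6 the protease inhibitor cystatin M/E, and Serpinb12 a serpin. A cell was called led by the gene of these 4 with the most UMIs. Krt2 led in 179 of 378 cells (47.4%, 42.2 to 52.5) in unamputated digits, and in the later libraries in 25 of 125 (20%, 13.4 to 28.1), 84 of 164 (51.2%, 43.3 to 59.1) and 262 of 448 (58.5%, 53.8 to 63.1). The 12 dpa interval lay below the other 3. Dsc1 led in 20.9%, 35.2%, 15.9% and 7.81% of cells, so that at 12 dpa it was the most frequent lead gene and at 28 dpa it trailed both Krt2 and Cst6. Cst6 led in 18.8% (15.0 to 23.1), 24.8% (17.5 to 33.3), 24.4% (18.0 to 31.7) and 23.2% (19.4 to 27.4), which overlap. Serpinb12 led in 8.99%, 13.6%, 5.49% and 6.70%, and the rest were ties. The pooled level of Krt2, which comes from the same counts that set the lead, stood at 3695, 1668, 3966 and 5614 CPM.

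**Figure D1:**
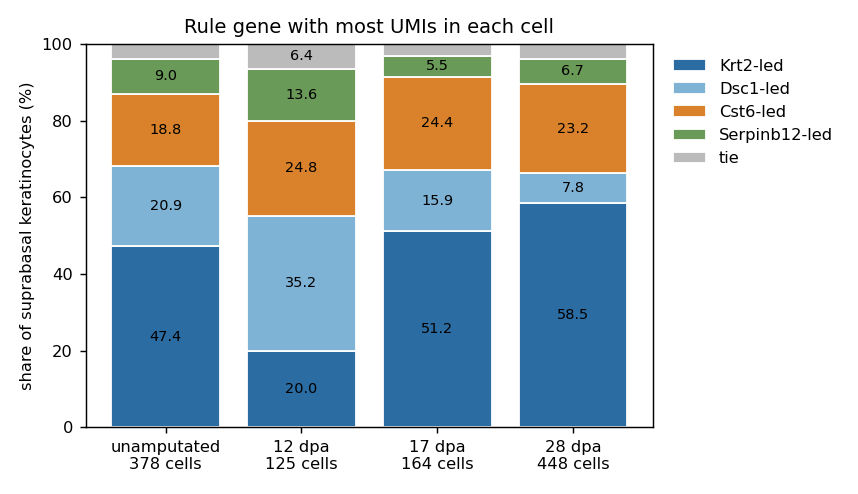
Share of suprabasal keratinocytes, in percent of cells, led by Krt2, Dsc1, Cst6 or Serpinb12 or tied, in each of the 4 libraries. Krt2-led cells were 20% at 12 dpa and between 47.4% and 58.5% in the other libraries.

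By pooled counts Krt1 stood near in Cst6-led and Krt2-led cells. By per-cell medians, however, the Cst6-led cells carried less of Krt1 and Krt10 together. They also held more of Krt79 and Krt17, from the hair follicle list, and of Krt6a, from the wound and alarm list. Krt1 and Krt10 made up a median of 0.481%, 1.77%, 1.51% and 0.382% of their UMIs, against 2.97%, 3.74%, 3.17% and 2.34% in Krt2-led cells, 3.90%, 4.42%, 4.48% and 3.21% in Dsc1-led cells and 4.97%, 7.30%, 7.02% and 4.77% in Serpinb12-led cells. Krt79, a keratin known from the upper follicle and the ducts of its sebaceous glands, stood at 3872, 2141, 2524 and 1512 CPM in Cst6-led cells and at 9.07, 0, 0 and 16.4 CPM in Krt2-led cells. It was detected in 43 of 71, 10 of 31, 19 of 40 and 30 of 104 Cst6-led cells, against 5 of 179, 0 of 25, 0 of 84 and 10 of 262 Krt2-led cells. The Krt79-bearing share was thus between 28.8% and 60.6% in one group and at most 3.82% in the other, where the counts of 0 have exact upper limits of 13.7% at 12 dpa and 4.30% at 17 dpa. Cells outside the keratin gate held 1.47 to 3.31 CPM of Krt79. Their median depths were 17462, 18935, 16445.5 and 8855.5 UMIs for Cst6-led and 18808, 17080, 15126 and 12857.5 UMIs for Krt2-led cells. For the Cst6-led cells the data went partly against the name suprabasal, and they are called Cst6-led here. Levels of the hair follicle list genes other than Krt79 and Krt17 are not given by lead gene.

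Other genes separated the groups in the same direction in all 4 libraries. Krt17, a keratin of follicles and wound edges, stood at 3877, 2195, 4752 and 2635 CPM in Cst6-led and at 45.3, 28.0, 1.61 and 15.6 CPM in Krt2-led cells. Defb6, a beta-defensin, stood at 4046, 1493, 1830 and 958 CPM in Cst6-led and at no more than 0.567 CPM in Krt2-led cells. Klk7, a kallikrein protease that acts in shedding of the surface layer, stood at 736, 327, 949 and 246 CPM against at most 3.68 CPM. Over all chosen cells, 1 cell gave 52.8% of the Defb6 UMIs at 12 dpa, and 1 cell gave 34.2% of the Klk7 UMIs at 12 dpa and 45.1% at 17 dpa. The reverse held for Krt24 (76.4, 31.3, 29.9 and 391 CPM in Cst6-led, 617, 370, 421 and 803 CPM in Krt2-led cells) and for Mt4, the metallothionein of stratified epithelia (1022, 3038, 2142 and 3439 against 5545, 8217, 7593 and 9242 CPM). Because the groups were cut from the rule genes, these differences carry no test.

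**Figure D2:**
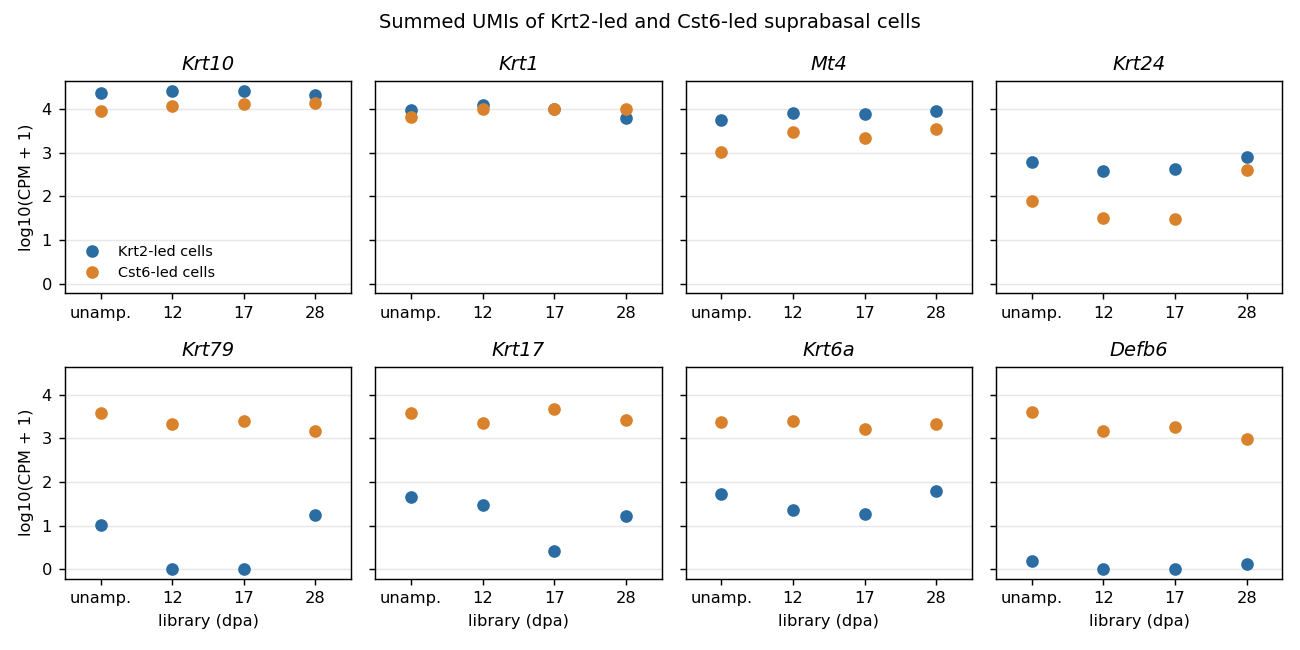
Levels of 8 named genes as log10 of CPM plus 1, by library, in Krt2-led cells (blue) and Cst6-led cells (orange), each point a sum over the cells. Krt79, Krt17, Krt6a and Defb6 stood higher in Cst6-led cells in all 4 libraries, Krt10, Mt4 and Krt24 stood lower, and Krt1 stood near in both.

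Against basal keratinocytes of the same library, the gene among the 5 highest ratios in all 4 libraries was Ly6g6c, a member of the Ly6 family of membrane-anchored proteins, at 265, 314, 415 and 396 CPM in suprabasal and 2.62, 4.39, 3.30 and 6.41 CPM in basal cells. Klk7 was among the 5 highest in 3 libraries and Defb6 and Krt79 in 2 each. At 28 dpa the highest 5 also held Elovl4, the elongase that makes the very long acyl chains of barrier ceramides, at 249 against 5.77 CPM, and Slurp2, a secreted Ly6-family protein, at 312 against 10.9 CPM. Elovl4 stood at 374, 302 and 355 CPM in the unamputated, 12 and 17 dpa suprabasal cells, so it was high in every library. Basal and suprabasal cells were separated on expression, and these ratios describe that separation.

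The time points were then each compared with unamputated digits over the 6197 genes whose mean level in the suprabasal cells reached 20 CPM. All 3 comparisons share the unamputated library. Ratios are log2 of CPM after adding 1 CPM. At 12 dpa 82 genes (1.32%) were at least 2-fold higher and 106 (1.71%) at least 2-fold lower. At 17 dpa these were 102 (1.65%) and 38 (0.613%), and at 28 dpa 114 (1.84%) and 169 (2.73%). The median of all genes stood at -0.19, -0.17 and -0.22, and centring on it gave 123 higher and 57 lower genes, then 135 and 15, then 185 and 86, for the 3 times in order. Without the collagen-bearing cells the higher genes numbered 40, 35 and 56 and the lower genes 135, 87 and 219. The number of genes tested in the remaining cells is not given.

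At 12 dpa the highest ratios with many cells behind them belonged to a keratin of activated epidermis and to stefins, the cytosolic cystatin-type inhibitors of cathepsins. Krt16 stood at 249 CPM (238 to 260), 1257 CPM (1211 to 1304), 247 CPM (227.7 to 267) and 124 CPM (115 to 134), in the order unamputated, 12, 17 and 28 dpa that all lists of levels follow. The 12 dpa level was the high one, at a log2 ratio of 2.33, and was carried by 63 of 125 cells. Much of it lay in Cst6-led cells, where Krt16 was 591 CPM unamputated and 3298 CPM at 12 dpa, while in Krt2-led cells it was 36.0 and 62.4 CPM. Within Krt2-led cells the ratio was 0.78, under 2-fold. Fabp5, the epidermal fatty acid binding protein, stood at 5617, 12635, 6246 and 7462 CPM, again highest at 12 dpa (log2 ratio 1.17). In Cst6-led cells Fabp5 was 2954 CPM unamputated and 19301 CPM at 12 dpa, and in Krt2-led cells 6092 and 8710 CPM. In basal cells Fabp5 had a 12 dpa ratio of 1.77, and basal Krt16 had one of -0.10.

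The stefins of chromosome 16 were high at 12 dpa and low at 28 dpa. Their genes lie within one cluster on the minus strand (GRCm38, GENCODE M21), Cstdc5 at chr16:36359382-36367748, Stfa3 at chr16:36450537-36455392, Cstdc6 at chr16:36321665-36334332 and Csta1 at chr16:36119946-36131241. The copies are alike in sequence, so reads may be split or misassigned among them and single-gene values are uncertain. The 250 bases before the start of Stfa3 are printed because Stfa3, Cstdc5 and Csta1 had the same order of levels and share stretches of this window (RefSeq promoter table, GRCm38.p6, chr16:36455393-36455642, minus strand, 5′ to 3′). Capitals mark the 3 runs of 15 bases that also occur in the windows of Cstdc5 and Csta1.
Stfa3: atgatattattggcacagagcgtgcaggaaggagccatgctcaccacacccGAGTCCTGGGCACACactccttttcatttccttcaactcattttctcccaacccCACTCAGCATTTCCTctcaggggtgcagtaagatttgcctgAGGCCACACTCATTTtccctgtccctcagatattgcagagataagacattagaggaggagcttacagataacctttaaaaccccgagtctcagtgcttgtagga

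GAGTCCTGGGCACAC began 199 bases before the gene start in Stfa3, 176 in Cstdc5 and 110 in Csta1. CACTCAGCATTTCCT began 145, 122 and 56 bases before it, and AGGCCACACTCATTT 104, 81 and 15 bases before it. On either strand they were found in 5, 7 and 5 of 32851 promoter windows, and every one of those windows belonged to a Stfa, Csta or Cstdc gene or to Gm7260. In Cstdc5 and Csta1 annotated transcripts reach into the window. The Stfa3 and Cstdc5 windows matched at 72.5% of aligned positions, gaps included, and each matched that of Csta1 at 52.2% and 53.4%. No unrelated windows were aligned, so the level that unlike sequences would reach is not given. The shared runs are a description of related copies.

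Cstdc5 stood at 1269 CPM (1244 to 1294), 3896 CPM (3815 to 3977), 1074 CPM (1034 to 1115) and 205 CPM (193 to 217.1). The log2 ratios were 1.62, -0.24 and -2.62. Stfa3 followed the same order with 396, 886, 364 and 79.6 CPM, and so did Csta1 with 77.1, 238, 70.2 and 40.3 CPM and Cstdc6 with 49.0, 156, 46.0 and 21.6 CPM. For each of these 4 genes the 12 dpa library was the high one and the 28 dpa library the low one, and 17 dpa lay a little below unamputated. In Krt2-led cells the 28 dpa ratio of Cstdc5 was -1.52 and of Stfa3 -1.80, whereas at 12 dpa Stfa3 was -0.14 there. Basal cells had Cstdc5 ratios of 1.44, -0.47 and -4.29. Cells outside the keratin gate held 56.8, 9.33, 38.3 and 1.78 CPM of Cstdc5.

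**Figure D3:**
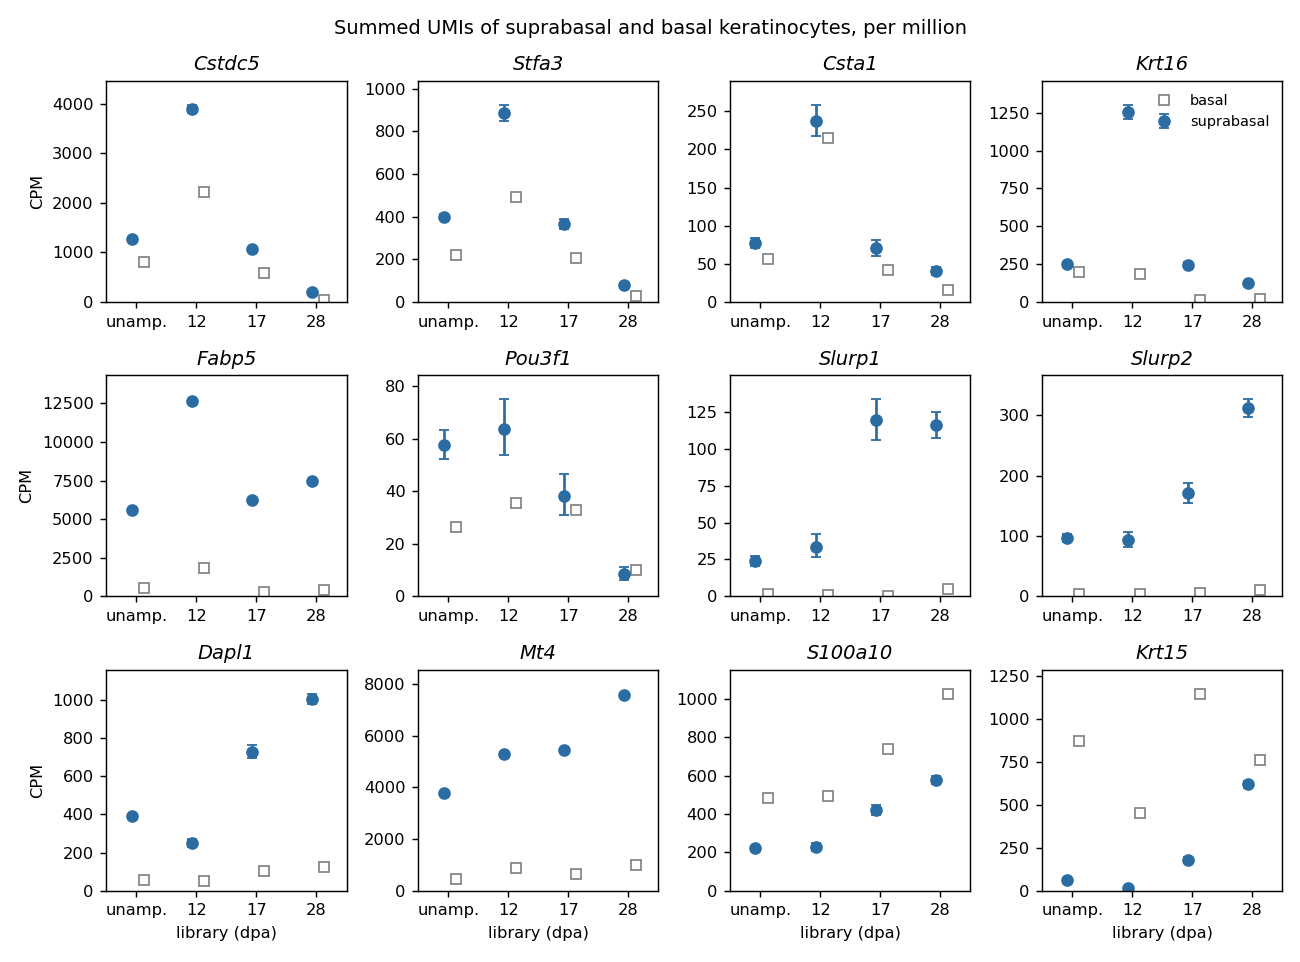
Levels of 12 named genes in CPM on linear axes from 0, scaled per gene, in suprabasal cells (points with exact Poisson 95% intervals) and basal cells (open squares), by library. Cstdc5, Stfa3, Csta1 and Krt16 are highest at 12 dpa and lowest at 28 dpa in suprabasal cells, where Slurp2, Dapl1, Mt4 and S100a10 are highest at 28 dpa.

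Slurp1, Slurp2 and S100a10, named for their ratios or as list members, were above the unamputated level at 17 and 28 dpa. The lists of differentiation genes went both ways at 28 dpa. Their medians were 0.35 for the cornified envelope, -0.20 for the keratins, -0.29 for the lipid barrier and -0.44 for the transcription factors. The same medians in basal cells were 0.46, 0.22, -0.47 and -0.47. Slurp1, a secreted Ly6-family protein whose loss in people causes a palm and sole keratoderma, stood at 23.8 CPM (20.6 to 27.5), 33.7 (26.6 to 42.1), 119 (106 to 134) and 116 (107 to 125). Both later libraries lay above both earlier ones, at log2 ratios of 2.28 and 2.23. Its neighbour Slurp2 (Slurp1 at chr15:74724318-74728034, Slurp2 at chr15:74742764-74746693, both minus strand) stood at 96.0, 94.0, 171 and 312 CPM, with ratios of -0.03, 0.82 and 1.69. The ratios held in Krt2-led cells, at 1.81 and 2.29 for Slurp1 and 0.66 and 1.52 for Slurp2. S100a10, the annexin A2 partner, was the 1 gene of 13 tested for calcium handling to pass 2-fold, at 28 dpa, where 1.84% of all genes were higher, so the count is no result about the list. It stood at 225, 229, 420 and 577 CPM.

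Dapl1 and Mt4, named after their values were seen, also had their highest level at 28 dpa. Dapl1, known as an early epithelial differentiation gene, stood at 389 CPM (375 to 403), 248 (228.3 to 270), 728 (695 to 762) and 1005 (979 to 1032), so that 12 dpa was the low library and 28 dpa the high one. Mt4 stood at 3782, 5285, 5450 and 7565 CPM, with all 3 amputated libraries above unamputated. Basal cells had ratios of -0.07, 0.93 and 1.19 for Dapl1 and 0.93, 0.50 and 1.13 for Mt4. Krt24, a keratin of differentiating cells, stood at 350.5, 135, 305 and 663 CPM and was low at 12 dpa (log2 ratio -1.37). In Krt2-led cells it was 617 CPM unamputated and 370 CPM at 12 dpa, under 2-fold lower, and in Cst6-led cells 76.4 and 31.3 CPM. Krt10 varied less than any of these, at 20639, 21940, 22923 and 20011 CPM, and Krt1 stood at 13032, 18008, 13477 and 9333 CPM.

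Krt15, a keratin of basal and follicle stem cells, had the highest 28 dpa ratio, 3.27, at 63.3, 13.6, 178 and 618 CPM. It was found in 41, 8, 18 and 85 cells, and at 17 dpa 1 cell gave 56.2% of its UMIs. In Cst6-led cells it stood at 272, 50.4, 594 and 2836 CPM and in Krt2-led cells at 27.2, 0, 54.7 and 101 CPM, so the 28 dpa UMIs lay mostly in Cst6-led cells. In basal cells its 28 dpa ratio was -0.20. Cxcl14, an epithelial chemokine, stood at 41.4, 51.2, 72.6 and 150.2 CPM. The other genes with the highest ratios at 17 and 28 dpa included Tubb4b, a beta-tubulin, at 46.6, 52.5, 125 and 122 CPM. Also among them was the pseudogene Rpl9-ps6 at 24.4, 31.5, 67.0 and 77.8 CPM. Its reads may be mixed with those of its parent gene, which was not tested.

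Among the genes lower at 28 dpa were 3 transcription factors, a lipid transporter and 2 proteases. Pou3f1, a POU-domain factor of suprabasal epidermis, stood at 57.6 CPM (52.4 to 63.1), 63.8 (53.9 to 75.1), 38.1 (30.8 to 46.5) and 8.53 (6.26 to 11.3), so the 28 dpa library stood apart with 33 of 448 cells detecting it, against 154 of 378 in unamputated digits. Ehf, an ETS factor of epithelia, stood at 42.6, 22.7, 41.6 and 14.5 CPM, and the homeobox gene Barx2 at 202, 262, 191 and 94.7 CPM. These 3 were the factors past 2-fold at 28 dpa among 26 tested, where 2.73% of all genes were lower, and in Krt2-led cells they also passed, at -2.14, -1.83 and -1.54. The median of the 26 was -0.44, against -0.22 over all genes. Basal cells went the same way at 28 dpa, with 5 of the 26 lower by 2-fold and a median of -0.47, so the lower level was not particular to suprabasal cells. Abca12, which loads lipid into lamellar granules, stood at 172, 147, 147 and 71.7 CPM and was the 1 lipid barrier gene of 19 lower by 2-fold at 28 dpa, a share near the 2.73% of all genes. Ctsc, a lysosomal peptidase, stood at 146, 237, 103 and 47.2 CPM and the membrane protease Tmprss4 at 54.9, 82.6, 71 and 20.5 CPM. Median depth was also lowest at 28 dpa, and its part in these values was not tested.

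Other genes with the lowest 28 dpa ratios lay partly in the Cst6-led cells. Defb6 stood at 748, 376, 483 and 187 CPM overall (log2 ratio -1.99 at 28 dpa), and Adgrl3, an adhesion receptor, at 373, 158, 214 and 83.8 CPM. The long transcript 2610035D17Rik stood at 209, 197, 130 and 47.3 CPM. At 17 dpa the lowest ratios went to Krt6b, Map2, Robo2, Rpl29, Eno1 and Car2. Car2, a carbonic anhydrase, stood at 265, 379, 120 and 67.3 CPM, so that both later libraries were below the earlier ones.

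At 12 dpa the lowest ratios belonged to genes with different later courses. Tfap2b, an AP-2 transcription factor, stood at 111 CPM (104 to 119), 23.6 (17.7 to 30.8), 65.4 (55.8 to 76.2) and 110.3 (102 to 119), so that 12 dpa was low and 28 dpa lay within the unamputated interval. It was also lower in basal cells at 12 dpa, 89.4 CPM against 256. Kif21a, a kinesin, stood at 129.5, 47.7, 96.8 and 124 CPM. Spink5, the Kazal-type inhibitor lost in Netherton syndrome, stood at 259, 84.8, 203 and 240.4 CPM, and Olah, a thioesterase, at 71.2, 23.2, 56.7 and 124 CPM. Without Cst6-led cells the 12 dpa ratio of Spink5 was 0.20, of the opposite sign.

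Some of the highest ratios rested on single cells. At 17 dpa Prg4 stood at 436 CPM against 0.507 CPM in unamputated digits, with 98.8% of its UMIs in 1 cell. Pinlyp, at 27.4, 202, 45.2 and 184 CPM, had 73.1% of its 12 dpa and 70.1% of its 28 dpa UMIs in 1 cell. Krt6b, at 101, 346, 16.3 and 16.3 CPM, had between 42.9% and 100% in 1 cell. Flg, which encodes filaggrin and stood at 48.8, 166, 67.4 and 28.3 CPM, was found in 12 cells at 12 dpa, and 88.5% of its 28 dpa UMIs came from 1 cell. At 17 dpa the transcript 2310046K23Rik stood at 289 CPM against 55.9 CPM unamputated, with 71.2% in 1 cell. These values describe a few cells of a library.

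Among the lists by role, the structural genes of the suprabasal layers had few members past 2-fold, apart from the keratins at 12 dpa. Of all genes, 0.613% to 2.73% passed in each direction. Of 16 desmosome genes 10 were tested and of 17 Notch genes 8, and none of either list passed 2-fold at any time, which at that background is no result about them. The lists' medians lay between -0.34 and -0.19 for desmosomes and between -0.30 and -0.19 for Notch, near those of all genes. Of the 9 keratins of differentiating epidermis 6 were tested. Krt2, a rule gene, and Krt24 were lower at 12 dpa, where 1.71% of all genes were, and none passed 2-fold later. The keratin medians were -0.64, 0.075 and -0.20, against -0.67, -0.11 and 0.22 in basal cells. Krt1, Krt2 and Krt10 of the keratin list, and Dsc1 of the desmosome list, also served to choose the cells. The medians of these lists are therefore in part a description of the choice. At 12 dpa the keratin median was -0.37 in Krt2-led cells over the same genes, and -0.01 with the genes chosen anew. Krt24 was under 2-fold lower within Krt2-led cells. Of 45 cornified envelope genes 12 were tested, with medians of 0.29, 0.37 and 0.35. A stricter cell filter took at least 1000 genes and 2000 UMIs and at most 5% mitochondrial UMIs. With the tested genes chosen anew on those cells, the medians were 0.046, 0.425 and 0.202. In this list Flg was higher at 12 dpa, with ratios of the opposite sign in Krt2-led cells (-3.59) and under the stricter cell filter (-1.58). Sprr1a was lower at 12 dpa, Sprr1a and Cnfn were higher at 17 dpa, and Sprr1a was lower at 28 dpa. Sprr1a, a small proline-rich envelope precursor, stood at 130.02, 39.3, 269 and 45.2 CPM and had no steady course.

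The list of 40 wound and alarm genes had 15 tested. At 12 dpa Krt16, Krt6b and Stfa3 were past 2-fold higher and Sprr1a lower, where 1.32% of all genes were higher and 1.71% lower. The list median was 0.07. At 17 dpa Sprr1a and Hbegf were higher and Krt6b lower, where 1.65% of all genes were higher and 0.613% lower. The list median was then -0.04. Over the same 15 genes the median was 0.51 without Cst6-led cells and -0.59 in Krt2-led cells at 12 dpa, and -0.58 and -0.70 at 17 dpa, so at these times it depended on which cells were taken. At 28 dpa 8 of the 15 were lower and none higher, with a median of -1.18, where 2.73% of all genes were lower and their median was -0.22. The 8 were Krt6b, S100a9, Sprr1a, Slpi, Defb1, Defb6, Stfa3 and Hbegf. Over the same 15 genes the median at 28 dpa was -0.92 without Cst6-led cells, -0.64 in Krt2-led cells and -0.86 in basal cells. For S100a9, Slpi and Krt6b at least 59.6% of the 28 dpa UMIs came from 1 cell.

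Some genes that digestion of tissue is known to induce were lower at 12 dpa. Of 19 tested, Fos, Fosb, Atf3, Zfp36 and Dusp1 were past 2-fold lower, with a list median of -0.57, where 1.71% of all genes were lower and their median was -0.19. The list median in basal cells was -0.90. Fos, an immediate early factor, stood at 183, 73.9, 196 and 144 CPM. Hspb1, a small heat shock protein also made by differentiating keratinocytes, went the other way, at 224, 399.6, 441 and 519 CPM, and passed 2-fold at 28 dpa. The part of handling in the 12 dpa values was not tested. Of the 11 tested basal genes, Col17a1, a rule gene, Itga6 and Krt15 were lower and Postn and Sparc higher at 12 dpa, where 1.71% of all genes were lower and 1.32% higher. Krt15 and Sparc were higher at 17 and at 28 dpa, where 1.65% and 1.84% of all genes were, and none of the 11 was lower. The basal list had medians of -0.11, -0.03 and -0.12, and of -0.41 at 12 dpa and 0.07 at 28 dpa without the collagen-bearing cells. Besides Col17a1, this list holds Krt5 and Krt14 of the keratin gate, so its medians in part describe the choice of cells. Postn and Sparc are also high in fibroblasts, and the 5 tested fibroblast markers had medians of 1.20, 0.81 and 0.78, against -0.76, 0.75 and 0.10 in basal cells. With the tested genes chosen anew, the suprabasal medians were 3.93, 3.69 and 2.98 without Scrublet-marked cells, and 2.59, 2.77 and 2.77 with at least 1000 genes and 2000 UMIs and at most 5% mitochondrial UMIs.

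For the lists of the barrier and its control, counts past 2-fold are again read against the 0.613% to 2.73% of all genes that passed in each direction. Of the cross-linking and filaggrin processing genes 8 of 13 were tested, with medians of 0.48, 0.27 and -0.24, and Asprv1, the protease that cleaves profilaggrin, was past 2-fold higher at 12 and 17 dpa, and Ctsc lower at 28 dpa. The lipid barrier list stood at -0.01, -0.08 and -0.29, with Fabp5 higher at 12 dpa. Of 19 protease inhibitors 11 were tested, with medians of -0.19, -0.05 and -0.27, and Csta1 and Stfa3 were higher and Serpinb2, Serpinb3b and Spink5 lower at 12 dpa. The rule gene Cst6 was higher at 17 dpa, and Cst6, Stfa3 and Slpi were lower at 28 dpa. Serpinb12 of this list is also a rule gene, so the medians in part describe the choice of cells. At 17 dpa the highest sum of Krt2, Dsc1, Cst6 and Serpinb12 in any chosen cell was 5953 UMIs, against a median of 26. How much of that cell's sum was Cst6 is not given. The 7 tested proteases of 16 had medians of 0.01, 0.01 and -0.56, the last of which was -0.39 without Cst6-led cells and -0.27 in Krt2-led cells over the same 7 genes. Across 11 alternatives the 28 dpa median lay between -0.77 and 0.02, the latter in Krt2-led cells with the tested genes chosen anew. It was -0.15 without Scrublet-marked cells and -0.13 without the collagen-bearing cells. The 12 dpa median lay between -0.33 and 0.69 across the alternatives. At 12 dpa Klk13 was higher and Klk6 lower, at 17 dpa Klk6 was higher, and at 28 dpa Klk6, Klk7 and Tmprss4 were lower. In the 12, 17 and 28 dpa libraries Klk6 was found in 4, 4 and 2 cells. The 8 tested tight and adherens junction genes stood at -0.40, -0.28 and -0.53, with Cdh3, P-cadherin, lower at 28 dpa. Calcium handling genes had medians of -0.20, -0.08 and -0.09. None of the 7 tested cell cycle genes (0.37, 0.06 and 0.24) or 5 interferon response genes (0.28, 0.04 and -0.05) passed 2-fold, which at that background is no result about them either. Several medians moved with the cells taken, and some turned sign. Over the same genes at 12 dpa and without Cst6-led cells, the protease inhibitors stood at 0.20, but at -0.14 with the tested genes chosen anew. The proteases stood at 0.57 without Cst6-led cells, of the same sign as in all chosen cells. The lipid barrier list stood there at 0.17, Notch at 0.01 and the interferon list at -0.01. In Krt2-led cells the interferon list stood at -0.30. At 28 dpa the interferon list stood at 0.15 without Cst6-led cells. Among 8 antioxidant genes (0.32, 0.15 and 0.22) Gpx3 was higher at each time and Hal lower at 28 dpa.

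**Figure D4:**
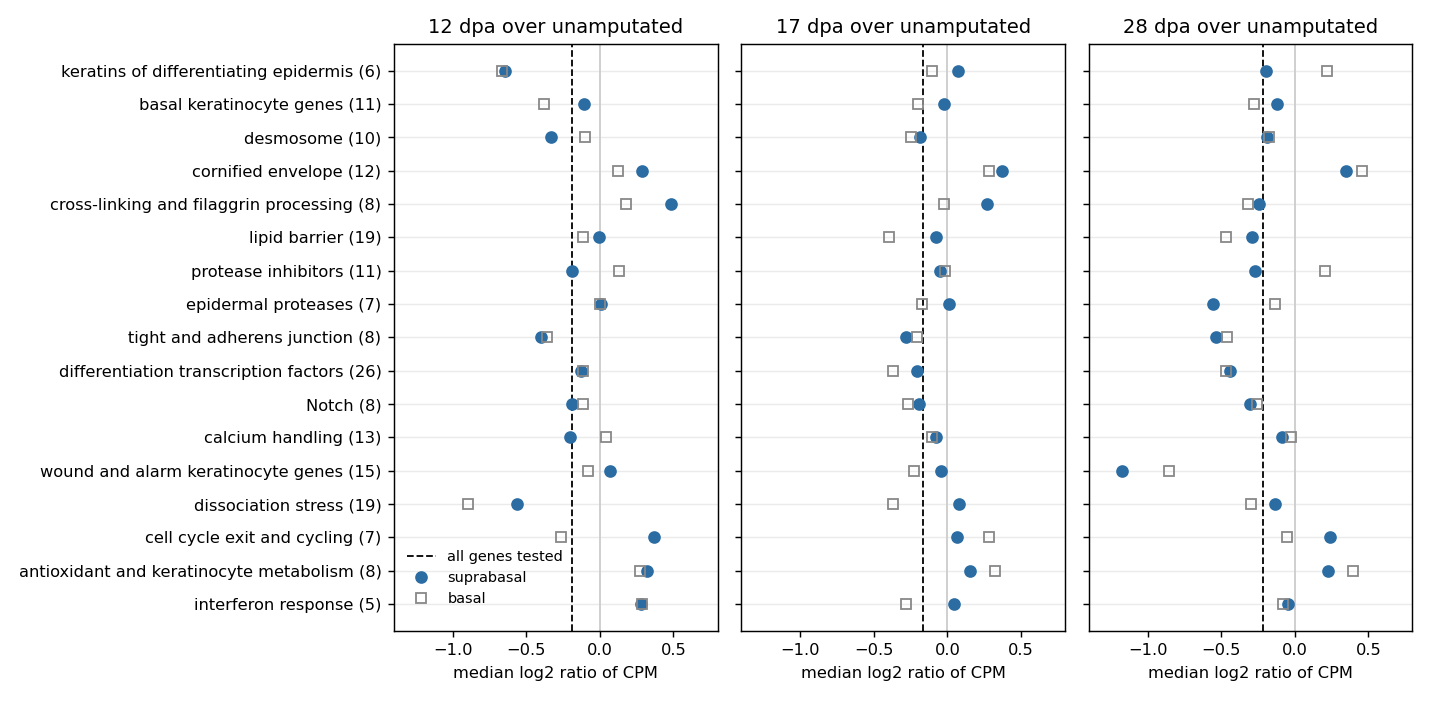
Median log2 ratio to unamputated digits of 17 gene lists in suprabasal (filled) and basal cells (open) at 12, 17 and 28 dpa, with the number of genes tested in parentheses and the median of all 6197 genes as a dashed line. The wound and alarm list stands lowest, at -1.18 in suprabasal cells at 28 dpa.

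UMIs of the late envelope genes Lor, Flg, Flg2, Hrnr and Ivl were found in few cells. After thinning every cell to 3000 UMIs, which left out 11, 3, 11 and 16 shallower cells, 28 of 367 cells (7.63%, 5.13 to 10.8) had such a UMI in unamputated digits. In the 12, 17 and 28 dpa libraries these were 12 of 122 (9.84%, 5.19 to 16.6), 17 of 153 (11.1%, 6.61 to 17.2) and 18 of 432 (4.17%, 2.49 to 6.51). The 28 dpa interval lay below that of 17 dpa and overlapped the others. Basal cells thinned alike held them in 2.32%, 2.56%, 3.44% and 2.19% of cells, and the unthinned shares in suprabasal cells were 22.5%, 18.4%, 24.4% and 15.8%. The suprabasal and basal intervals overlapped at 12 dpa (basal 0.947 to 5.50) and at 28 dpa (basal 1.20 to 3.64), and did not in the other libraries.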

How the data were processed

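Raw UMI counts per gene and barcode were deposited by the authors, who made them with Cell Ranger 7.1.0 on mm10, per the submitters' processing notes. Of 32285 gene IDs, 32158 were found in GENCODE M21. The cells, the 28 gene lists and the alternatives were chosen with earlier results of these data known.

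UMIs were summed over the chosen cells of each library and expressed as CPM. Log2 ratios used a pseudocount of 1 CPM, for the 6197 genes whose mean reached 20 CPM. A gene was counted as higher or lower past 2-fold. Named genes were the 6 highest and 6 lowest ratios per comparison among genes whose mean reached 50 CPM, plus list members and, per library, the 5 highest ratios to basal cells among genes of at least 100 CPM. Rule, mitochondrial, haemoglobin, immunoglobulin and sex-linked genes were left out of the ranking, as were genes whose level in the chosen cells of the higher library was under 0.5 of that outside the keratin gate. Ambient RNA was not removed, and doublets were kept, with removal by Scrublet (scanpy 1.11.5) as an alternative. With 1 library per group no p-value was computed. Intervals cover counting error only.

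The steps were tested on simulated counts, where 100%, 100% and 99.5% of 200 genes given a 4-fold change were recovered at 12, 17 and 28 dpa among 6197 genes. Of the unchanged genes 0.0167%, 0% and 0% were called. A 4-fold change lies well above the 2-fold cut, so this checked the steps only. It gives no measure of how sound the 2-fold calls in the real libraries are. Python 3.11.15, numpy 2.4.6, scipy 1.17.1 and pandas 2.3.3 were used. Alternatives were other filters, score minimums, pseudocounts, scalings and lead groups. Alternatives without Cst6-led or collagen-bearing cells, in Krt2-led cells only, or without the top cell of a gene were chosen after seeing the data.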

Additional observations from a re-analysis of the deposited data

Results flagged for a closer look

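Xist stood at 675 CPM in suprabasal cells at 12 dpa, above the 0 to 0.127 CPM of the other 3 libraries. Sex-linked genes were left out of the ranking, but the same cells were used in every 12 dpa comparison.

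For 4 lists the median log2 ratio to unamputated digits had opposite signs in suprabasal and basal cells, each at least 0.2 from 0. The difference was not tested in any of them. The protease inhibitors at 28 dpa stood at -0.268 in suprabasal and 0.204 in basal cells, and over the same 11 genes the suprabasal median was -0.01 without Cst6-led cells and -0.027 in Krt2-led cells. With the genes chosen anew on those cells the medians were 0.085 and 0.033, of the other sign. The cell cycle list at 12 dpa stood at 0.369 against -0.262, the fibroblast markers at 12 dpa at 1.201 against -0.759, and the hair follicle markers at 17 dpa at 0.316 against -0.666. The suprabasal cell cycle median was under 0.2 in Krt2-led cells (0.09), without Cst6-led cells (0.191) and with a score of at least 6 (0.147). With the tested genes chosen anew, the suprabasal hair follicle median was -0.139 without Scrublet-marked cells, -0.087 among genes with a mean of 50 CPM or more and -0.574 without Cst6-led cells, so the opposite sign was lost in these 3. At 12 dpa the suprabasal fibroblast markers had 3 of 5 tested genes past 2-fold higher, where 1.32% of all genes were, Col1a1, Col1a2 and Col3a1, for which 1 cell gave 25.2%, 30.6% and 29.8% of the UMIs.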

How the results depend on the processing

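No paired analysis was possible because each group had 1 library. For the same reason no library could be left out. With at least 1000 genes and 2000 UMIs and at most 5% mitochondrial UMIs, the share of the keratin gate was 37.7%, 32.9%, 26.0% and 31.3% in the unamputated, 12, 17 and 28 dpa libraries. In the same order it was 29.7%, 22.8%, 28.4% and 26.3% with a score of at least 6, and 26.7%, 22.0%, 25.8% and 30.3% after thinning to 5000 UMIs, where 28 dpa was the highest library.

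Counts of genes past 2-fold, higher and lower, were 180 and 595 at 12 dpa, 222 and 186 at 17 dpa and 182 and 447 at 28 dpa with the strict filter. They were 41 and 41, 36 and 16, and 54 and 88 with a mean of at least 50 CPM, and 453 and 597, 573 and 363, and 538 and 453 with at least 1 CPM. The number of genes tested changes with the CPM minimum and can change with the cells taken. It is not given for these alternatives, so such counts cannot be set against the main counts. A pseudocount of 10 gave 50 and 41 at 12 dpa, and 15 and 91 lower at 17 and 28 dpa. Centring gave 57 lower at 12 dpa, 15 lower at 17 dpa, and 185 and 86 at 28 dpa. Krt2-led cells gave 150 and 397 at 12 dpa and 90 lower at 17 dpa. Without collagen-bearing cells 40 were higher at 12 dpa, 35 and 87 passed at 17 dpa, and 56 were higher at 28 dpa. At 17 dpa 71 were lower without Scrublet-marked cells and 73 with the mean of per-cell CPM.

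Cells with at least 2 late UMIs were 3.81%, 4.92% and 0.926% in unamputated, 12 and 28 dpa libraries, and after thinning to 5000 UMIs 1 or more were in 20% at 17 dpa and 7.43% at 28 dpa. Opposite signs were found for Krt6b at 12 dpa (-1.43 in Krt2-led cells), Flg at 12 dpa (-1.58 with the strict filter, -3.59 in Krt2-led cells), Spink5 at 12 dpa (0.20 without Cst6-led cells) and 2310046K23Rik at 17 dpa (-0.74 without Cst6-led cells). The cause was not tested. Of 657 values of list medians under alternatives, 470 stayed within a half-width of counting error around the main value. That half-width was the median over the single genes of a list, not the counting spread of the list median. A large move could therefore still count among the 470, so this count does not measure how stable the medians were. With centring, the lipid barrier median at 12 dpa went from -0.005 to 0.185, inside its half-width of 0.257. Of the 60 medians, 29 took the other sign under at least 1 alternative. Of 396 values of named gene ratios 251 stayed within the counting spread. The 12 dpa library had the fewest cells, 125, which limits its precision.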
